A study of Mus musculus with 18 samples.

Results

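The genes described here were chosen for a short early pulse in mouse kidney after folic acid injury. Their means were high 1 day after the injection and back near the untreated level by days 7 and 14. There were 26 of them among 37991 gene identifiers. In 11 of the 26 a single library carried the day 1 mean. The highest mean was at day 2 for 4 members and at day 3 for 1. The members were chosen from group means of normalized counts with 10 added to each mean. A gene had to reach a mean of 100 in untreated kidney or at any day, and its day 1 mean had to be at least 4 times the untreated mean. Its lowest day 1 library had to lie above its highest untreated library, and its day 7 and day 14 means each had to stay below 1.5 times the untreated mean. Genes of the mitochondrial genome were left out. Of 10773 genes that reached the level minimum, 260 met the day 1 criteria, and 26 of these (10%) were below the late limit at both late times. The cap of 200 genes was not reached. Untreated, day 1, day 7 and day 14 values chose the members, so they are given below as a description and without a test. The day 2 and day 3 values entered only through the level minimum, and 1 member, Fignl1, reached it only by its day 2 mean.

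The data are RNA-seq counts from kidneys of male Balb/c mice weighing 25 to 29 g. A kidney group without treatment and groups killed 1, 2, 3, 7 and 14 days after 1 intraperitoneal dose of folic acid at 250 mg/kg in 0.3 M sodium bicarbonate each had 3 libraries, 18 in all. No group was given only the bicarbonate vehicle, whose effect and that of folic acid cannot be told apart. The labels do not say that each library is a separate animal, and p-values therefore measure only the spread between these samples. Libraries held 8.68 to 54.6 M reads in genes (M, 1000000 reads), of which 59.0 to 75.6% were mitochondrial, and 2.83 to 17.2 M were in other genes. The shallowest was day 2 replicate 2.

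Folic acid at high dose injures the renal tubule, and surviving tubule cells pass through a stress response before they repair or scar. As background, that response includes oxidative stress genes under the transcription factor NRF2, such as heme oxygenase and glutathione S-transferases, and secreted stress and acute phase proteins such as GDF15 and fibrinogen. It also includes epithelial genes for crosslinking, cytoskeleton and adhesion, and many injury genes, such as Havcr1 (kidney injury molecule), stay on for days.

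Proximal promoters were in the RefSeq table (build GRCm38.p6) for 18 of the 26 members. The 4 below are shown because they are the members high in all 3 day 1 libraries that held a match to a motif other than the TATA box. Each is the 250 bases before a gene start, 5′ to 3′ on the gene's own strand, which is the minus strand for all 4. They are Fgb (fibrinogen beta chain) at chr3:83049864-83050113, Sprr1a (small proline-rich protein) at chr3:92485882-92486131, the second listed start of Tgm1 (transglutaminase) at chr14:55713493-55713742 and the first listed start of Gdf15 at chr8:70632096-70632345. Capitals mark motif matches.
Fgb: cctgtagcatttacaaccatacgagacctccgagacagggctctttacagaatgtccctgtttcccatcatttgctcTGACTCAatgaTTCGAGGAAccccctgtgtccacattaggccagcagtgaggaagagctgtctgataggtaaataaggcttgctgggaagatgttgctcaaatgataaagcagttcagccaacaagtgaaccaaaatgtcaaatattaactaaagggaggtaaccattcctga
Sprr1a: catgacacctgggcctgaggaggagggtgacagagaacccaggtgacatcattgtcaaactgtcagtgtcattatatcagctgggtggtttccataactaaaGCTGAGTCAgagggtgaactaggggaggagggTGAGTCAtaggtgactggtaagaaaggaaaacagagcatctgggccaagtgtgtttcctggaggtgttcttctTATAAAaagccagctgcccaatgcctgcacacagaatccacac
Tgm1: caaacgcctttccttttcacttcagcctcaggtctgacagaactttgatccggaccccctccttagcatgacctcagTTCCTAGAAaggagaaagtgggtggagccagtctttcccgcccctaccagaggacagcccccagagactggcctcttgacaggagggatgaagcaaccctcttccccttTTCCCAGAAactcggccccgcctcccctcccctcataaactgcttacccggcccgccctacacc
Gdf15: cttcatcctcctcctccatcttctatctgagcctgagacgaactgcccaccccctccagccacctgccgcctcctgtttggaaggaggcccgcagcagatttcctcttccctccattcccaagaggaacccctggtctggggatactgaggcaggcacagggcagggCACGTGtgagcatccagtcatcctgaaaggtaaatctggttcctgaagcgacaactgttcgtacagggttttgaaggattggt

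Fgb held an AP-1 match (TGANTCA) at position -173 and a STAT match (TTCNNNGAA) at -162, counted from the gene start. Sprr1a held AP-1 matches at -146 and -116 and a TATA box (TATAAA) at -43. Its match to the antioxidant response element (TGACNNNGC, here on the other strand as GCTGAGTCA) at -148 overlaps the first AP-1 match. Tgm1 held STAT matches at -173 and -64, and Gdf15 an E-box (CACGTG) at -83. Both strands were searched. AP-1 was found for 2 of 18 members and 7.82% of 27025 genes, STAT for 2 and 8.13%, the antioxidant element for 2 (Sprr1a, Atp1b3) and 11.5%, the E-box for 3 (Gdf15, Atp1b3, Zdhhc3) and 6.86%, and the TATA box for 2 (Sprr1a, Gsta2) and 14.3%. A heat shock element (GAANNTTC) was found for 1 (Atp1b3) and 7.73%. CRE (TGACGTCA), the amino acid response element (TGATGCAA), E2F (TTTCGCGC), NF-kB and the SRF CArG box matched 0 of 18, against 1.77, 0.918, 0.3, 0.414 and 1.62% of genes. These matches are a description of the letters in the window.

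The 26 members fell into unlike kinds when the 3 day 1 libraries were looked at singly, and this split was made after the values were seen. In 11 members 1 day 1 library was at least 3 times the second highest, with 10 added to each: Gad1os, Vamp3, Ppp1r13l, Dph2, Tk2, Ppp4r3a, Zdhhc3, Atp1b3, Mettl1, Hnrnph2 and Tymp. In these the highest library was 4.71 to 16.1 times the second, and without it the day 1 ratio was 1.12 to 2.46, below the 4-fold limit for all 11. The high library was replicate 1 for 6 of them, replicate 2 for 3 and replicate 3 for 2. Such a single high library at day 1 was seen in 3.44% of the 10773 genes at the level minimum and in 14.6% of the 260 genes that met the day 1 criteria. The other 15 members were high in every day 1 library: their highest was 1.01 to 2.99 times the second, and without it their ratio was 3.21 to 20.7, still 4 or more for 10. Below, the 15 are described first and the 11 after them.

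**Figure D1:**
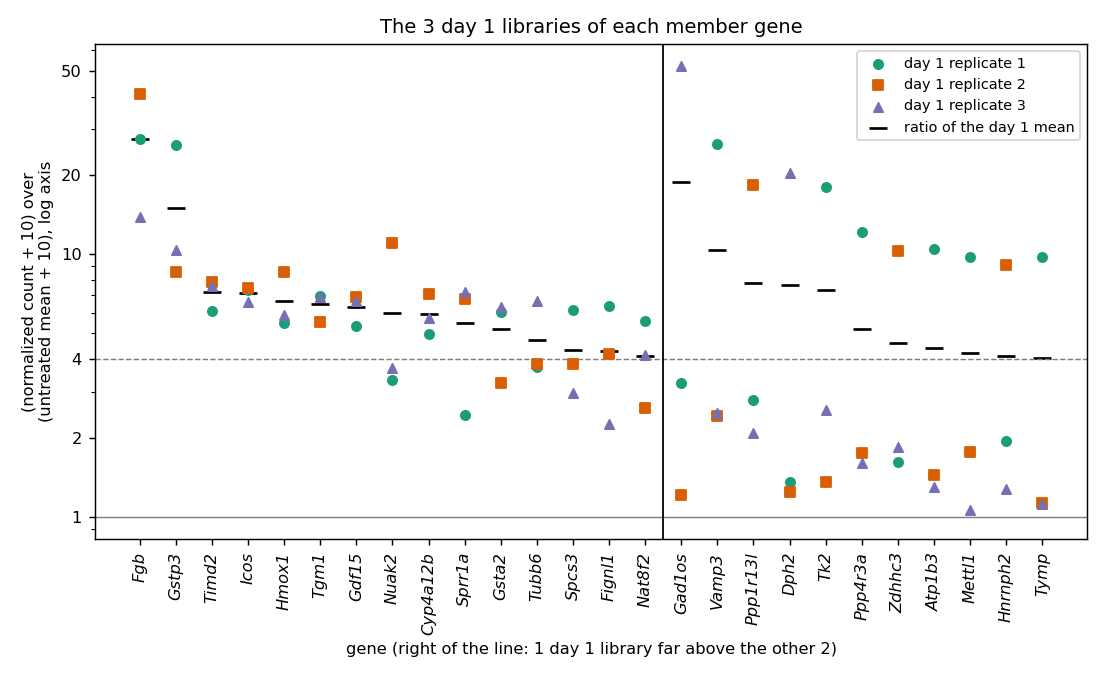
Each point is 1 day 1 library of 1 member, as normalized count plus 10 over the untreated mean plus 10 on a log axis, with the ratio of the day 1 mean as a bar and the 4-fold limit dashed. For the 15 genes left of the line the highest library is 1.14 to 3.31 times the lowest, while each of the 11 genes on the right has 1 library 4.71 to 16.1 times the second.

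Detoxification and oxidative stress genes made up the first group among the 15. Hmox1, heme oxygenase, which breaks down heme, had normalized counts of 113, 188 and 239 in untreated kidney and 1034, 1615 and 1109 at day 1. It stood at 589.6, 1084 and 426 at day 2, at 519, 429 and 276 at day 3, and at 261, 157 and 67.3 at day 7. All day 2 and day 3 libraries lay above all untreated ones, as the rule required of the day 1 libraries. Gsta2, an alpha-class glutathione S-transferase that conjugates electrophiles, went from 23.2, 30.8 and 31.8 untreated to 223, 115 and 234 at day 1, then 153, 119 and 76.5 at day 2 and 81.1, 100.1 and 90.7 at day 3. The groups did not overlap at any of those 3 days, and the day 3 level was still 2.61 times the untreated one.

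Gstp3, a pi-class glutathione S-transferase, was almost without reads in untreated kidney, with 3 reads over the 3 libraries, and had 267, 80.8 and 101 normalized counts at day 1. That is 120-fold (95% exact interval 40.9 to 584, counting error only). Day 2 gave 59.7, 9.19 and 17.1 and day 3 gave 98.6, 7.85 and 13.6, so the mean of 4.71 times untreated at day 3 (with 10 added) rests largely on replicate 1. Its abundant relative Gstp1 was at 366, 425 and 424 untreated and 786, 601 and 657 at day 1, a log2 change of 0.80 (SE 0.31, edgeR adjusted p = 0.104). Reads that fit several glutathione S-transferase copies could be divided between them in ways the sources do not describe, so these values are uncertain.

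Genes of fatty acid and amino acid conjugate metabolism were the next pair, and each has a near relative that moved otherwise. Cyp4a12b, an omega-hydroxylase of fatty acids, had 209, 228 and 156 normalized counts in untreated kidney, 1023, 1462 and 1176 at day 1 and 1606, 2118 and 1900.2 at day 2. It was at 906, 597 and 552 at day 3 and around the untreated values at day 7 (171, 141 and 269), so its highest group was day 2. Cyp4a12a, the neighbouring relative, stood at 5109, 4332 and 3210.4 untreated and 2921, 3878 and 2296 at day 1. It fell by 0.86 on the log2 scale at day 2 (SE 0.28, edgeR adjusted p = 0.0486) and by 1.67 at day 3 (SE 0.29, adjusted p = 0.00131), while the change of -0.42 at day 1 did not pass (adjusted p = 0.392).

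Nat8f2 belongs to a family of N-acetyltransferases of kidney and liver. It had 484, 428 and 283 normalized counts untreated and 2264, 1052 and 1672 at day 1, then 1233, 533 and 692 at day 2 and 722, 577 and 789 at day 3. All libraries of days 2 and 3 lay above the untreated ones, as the rule required of day 1. Its relative Nat8f1 was at 1645, 796 and 1114 untreated and at 81.4, 39.0 and 68.6 at day 1, where it fell by 4.18 on the log2 scale (SE 0.46, edgeR adjusted p = 1.29e-05), and it was back at 1221, 1113 and 699.6 by day 14. The relatives were looked up after the members were known, the differences within pairs were not tested, and reads shared between near-identical copies make both pairs uncertain. The summed level of 10 proximal tubule markers was 198970 to 218930 in untreated libraries and 39673 to 47510 at day 1, lower in every day 1 library, and its part in the values of these genes was not tested. In whole kidney, fewer cells of a type and less RNA per cell cannot be told apart.

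**Figure D2:**
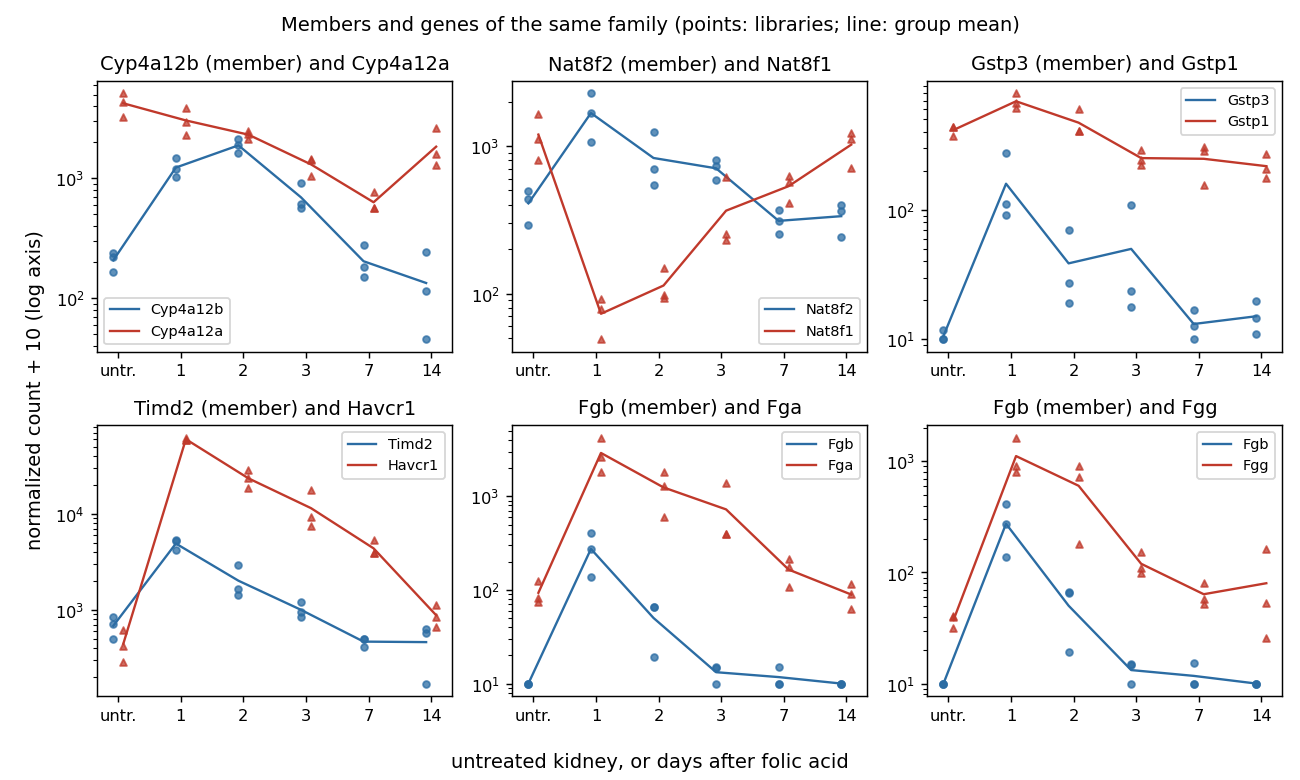
Normalized count plus 10 on a log axis against time for 5 members beside a relative (Fgb in 2 panels), points for libraries and lines for group means. Cyp4a12b and Nat8f2 are high at day 1 when Cyp4a12a is at 2296 to 3878 and Nat8f1 at 39.0 to 81.4, Fga and Fgg are high at day 1 with Fgb, and levels of different genes are not comparable because the counts are not per length.

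Secreted proteins came next. Fgb, the beta chain of the clotting protein fibrinogen and an acute phase protein, had no read in any untreated library and 265, 400.4 and 129 normalized counts at day 1. This is at least 247-fold higher, counted against a floor of 3 reads over the untreated group. At day 2 the values were 56.5, 55.1 and 9.05, at least 39.6-fold higher, at day 3 0, 4.91 and 4.77, and at day 14 again 0 in all 3. The other fibrinogen chains shared the day 1 peak: Fga stood at 72.5, 114 and 63.6 untreated and 4248, 1819 and 2641 at day 1, and Fgg at 30.5, 21.4 and 30.1 and then 1631, 793 and 896. Both passed at day 1 (log2 5.15, SE 0.59, edgeR adjusted p = 1.73e-05, and log2 5.40, SE 0.73, adjusted p = 8.83e-05). They missed membership because their day 7 means were 1.77 and 1.71 times the untreated mean, and the day 14 mean of Fgg was 2.14 times. Fibrinogen is best known from liver, and the summed level of 6 liver markers was 990 to 1532 in untreated libraries and 44.1 to 144 at day 1. Of these markers, 2 were at 0 in all untreated and day 1 libraries. The source of the fibrinogen reads was not tested.

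Gdf15, a stress-induced hormone of the TGF-beta superfamily, had 13.1, 23.2 and 11.7 normalized counts untreated, 129, 169.6 and 162 at day 1 and 327, 437 and 210.2 at day 2. It was at 174, 124 and 88.6 at day 3 and at 32.8, 7.68 and 24.5 at day 7. Its day 2 mean was 205% of its day 1 mean, the highest such share of any member. Its highest mean was thus a day after the time that selected it, but edgeR did not call that step (log2 1.02, SE 0.59).

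Genes of the epithelial barrier and cytoskeleton followed. Tgm1, the transglutaminase that crosslinks the cornified envelope, had 125, 263 and 142 normalized counts untreated and 1287, 1019 and 1276 at day 1. It stood at 678, 905 and 439.6 at day 2 and 532, 498 and 318 at day 3. These all exceeded the untreated libraries, as the rule required of day 1. At day 14 it was at 99.1, 136 and 134. Sprr1a, a small proline-rich substrate of transglutaminases, had 39.2, 40.8 and 13.4 untreated, 90.5, 269 and 286 at day 1 and 23.2, 87.3 and 69.4 at day 2. Its day 2 libraries overlapped the untreated ones, while those of day 3 (88.1, 98.1 and 70.2) did not. Tubb6, a beta-tubulin isotype, had 62.4, 87.9 and 48.6 untreated, 274, 281 and 497 at day 1 and 299, 115 and 162 at day 2, and it overlapped the untreated range at day 3 (108, 107 and 87.3).

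The receptors were Timd2 and Icos. Timd2, a receptor for ferritin heavy chain from the same family as Havcr1, had 838, 489.9 and 700.0 normalized counts untreated and 4166, 5366 and 5206 at day 1. It then stood at 1657, 2955 and 1421 at day 2, 838, 956 and 1194 at day 3 and 487, 493 and 399 at day 7. Every day 1 library was above every library of the other groups, and day 3 still lay at or above the untreated maximum. Havcr1 itself was at 277, 616 and 415 untreated and 59189, 62381 and 58134 at day 1 (log2 7.15, SE 0.41, edgeR adjusted p = 9.78e-09) and still at 3891, 3869 and 5370.3 at day 7, so the relatives shared the peak day but not the late level.

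Icos, a costimulatory receptor known from T cells, had 8.70, 5.03 and 10.05 normalized counts untreated and 121, 124 and 108 at day 1. Day 2 gave 11.1, 234 and 27.2, with the high value in the shallowest library. The summed level of 9 T and natural killer cell markers was 58.0 to 73.7 untreated and 33.2 to 50.9 at day 1, of which Cd3d took 20.3 to 40.2 untreated and 21.9 to 43.0 at day 1. Cd2, Nkg7, Klrb1c and Gzma were at 0 in all day 1 libraries. At day 2 the sum was 33.2 to 202, and in replicate 2 Cd3d alone gave 188 of the 202. There Cd3e, Cd3g, Nkg7, Gzma and Cd2 were at 0, and Cd4, Cd8a and Klrb1c at 4.60 each. The part of these cells in the day 2 value was not tested.

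The remaining 3 of the 15 have a signalling, repair or secretory role. Nuak2, a kinase related to AMPK, had 468, 183 and 203 normalized counts untreated, 970.2, 3235 and 1074 at day 1, 1545, 4752 and 1238 at day 2 and 1026, 512 and 815 at day 3. Replicate 2 was the high library at both day 1 and day 2, though libraries of the same replicate number showed no link. Day 2 replicate 2 was also the shallowest library. The other day 2 values of Nuak2, 1545 and 1238, lay below its day 1 mean of 1760, so its day 2 peak rests on that library. At day 2 a single high library was seen in 8.98% of the 10773 genes, and it was replicate 2 for 601 of these 967. Fignl1, an ATPase of homologous recombination repair, had 14.5, 19.5 and 6.70 untreated, 140.2, 88.2 and 43.2 at day 1, 87.7, 216 and 145 at day 2 and 106, 27.5 and 96.1 at day 3. Spcs3, a subunit of the signal peptidase of the endoplasmic reticulum, had 821, 398 and 619.6 untreated, 3813, 2367 and 1831 at day 1, 1557, 1135 and 2305 at day 2 and 655, 636 and 1619 at day 3. All 3 genes had every day 2 library above every untreated one, and Nuak2 and Fignl1, like Gdf15 and Cyp4a12b, had their highest mean at day 2. For Fignl1 that mean is also what admitted it. Day 1 values chose the members, so the step from day 1 to day 2 is only described. Its log2 change was 0.44 for Nuak2 (SE 0.56), 0.66 for Fignl1 (SE 0.62), 1.02 for Gdf15 (SE 0.59) and 0.57 for Cyp4a12b (SE 0.44). In this step edgeR called 0 of the 25 members tested in either direction, and nothing is read from it.

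**Figure D3:**
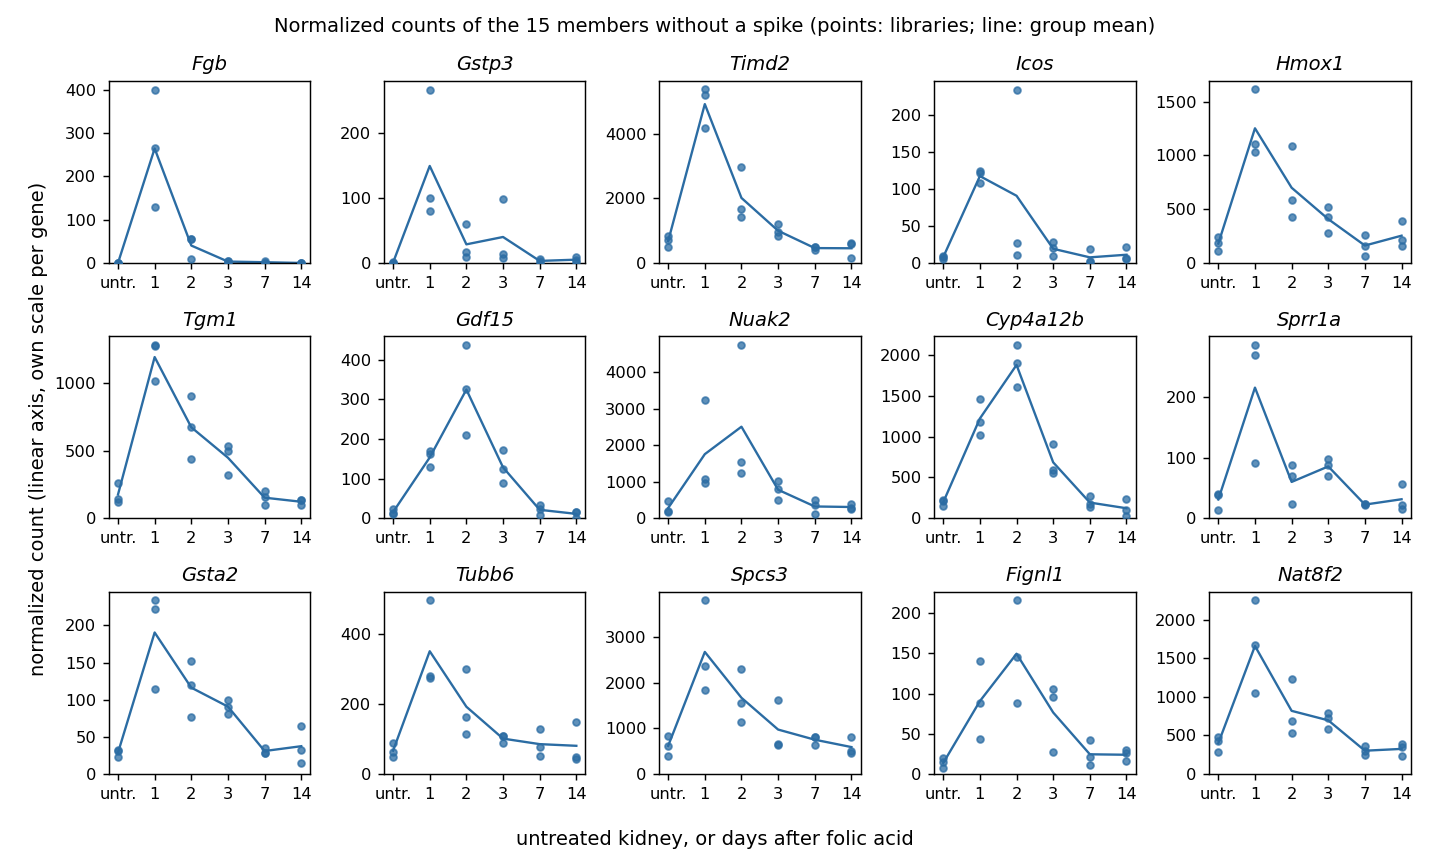
Normalized counts (linear axis, own scale per gene) of the 15 members high in every day 1 library, against untreated kidney and days after folic acid, with points for libraries and a line through group means. Most lines peak at day 1, those of Gdf15, Nuak2, Cyp4a12b and Fignl1 peak at day 2, and all are back near the untreated level by day 7.

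The 11 members with a single high day 1 library are mostly genes of general cell function. Vamp3, a vesicle fusion protein of recycling endosomes, had 468, 369 and 402 normalized counts untreated and 11114, 1014 and 1044 at day 1. As the rule required of every member, its other day 1 libraries also lay above every untreated one. The ratio without replicate 1 was 2.46. Atp1b3, a beta subunit of the sodium pump, had 9363, 1273 and 1148 at day 1 against 692, 943 and 1015 untreated. Ppp4r3a, a regulatory subunit of protein phosphatase 4, had 8611, 1231 and 1125 against 829.7, 549.6 and 712.

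Zdhhc3, a palmitoyltransferase, had 688, 4458 and 789 normalized counts at day 1 against 391.6, 418 and 461 untreated, and 613, 1314 and 1363 at day 2, so it was the member of this kind with the highest day 2 share of day 1, 55.7%. Ppp1r13l, an inhibitor of p53, had 76.9, 565 and 54.9 at day 1 against 17.4, 39.6 and 6.70 untreated. At day 3 its replicate 1 was at 996 and the others at 89.3 and 61.4, so it was high in single libraries at 2 times and had its highest mean at day 3. Hnrnph2, a splicing factor, had 723, 3443 and 473 at day 1 against 383, 277 and 445 untreated.

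The pyrimidine nucleoside enzymes Tk2 (mitochondrial thymidine kinase) and Tymp (thymidine phosphorylase) were high in the same library, replicate 1. Tk2 had 1003, 65.9 and 132 normalized counts at day 1 against 49.3, 63.4 and 25.1 untreated, and Tymp had 265, 21.8 and 21.3 against 20.3, 13.8 and 20.1. Mettl1, a tRNA methyltransferase, was also high in replicate 1, with 909, 156 and 89.4 against 87.0, 76.6 and 88.8. Dph2, of the diphthamide pathway that modifies elongation factor 2, had 41.8, 37.2 and 767 against 34.8, 24.5 and 25.1. Gad1os, the 1 antisense RNA among the members, had 39.6, 8.59 and 789.7 against 4.35, 5.03 and 6.70, and it overlaps Gad1 on the other strand. Use of strand in counting is not given, and without it reads of the pair cannot be told apart. Gad1 itself was at 7.62 in the day 1 library where Gad1os was at 789.7. Over all members, 8 overlap a gene on the other strand in the annotation.

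**Figure D4:**
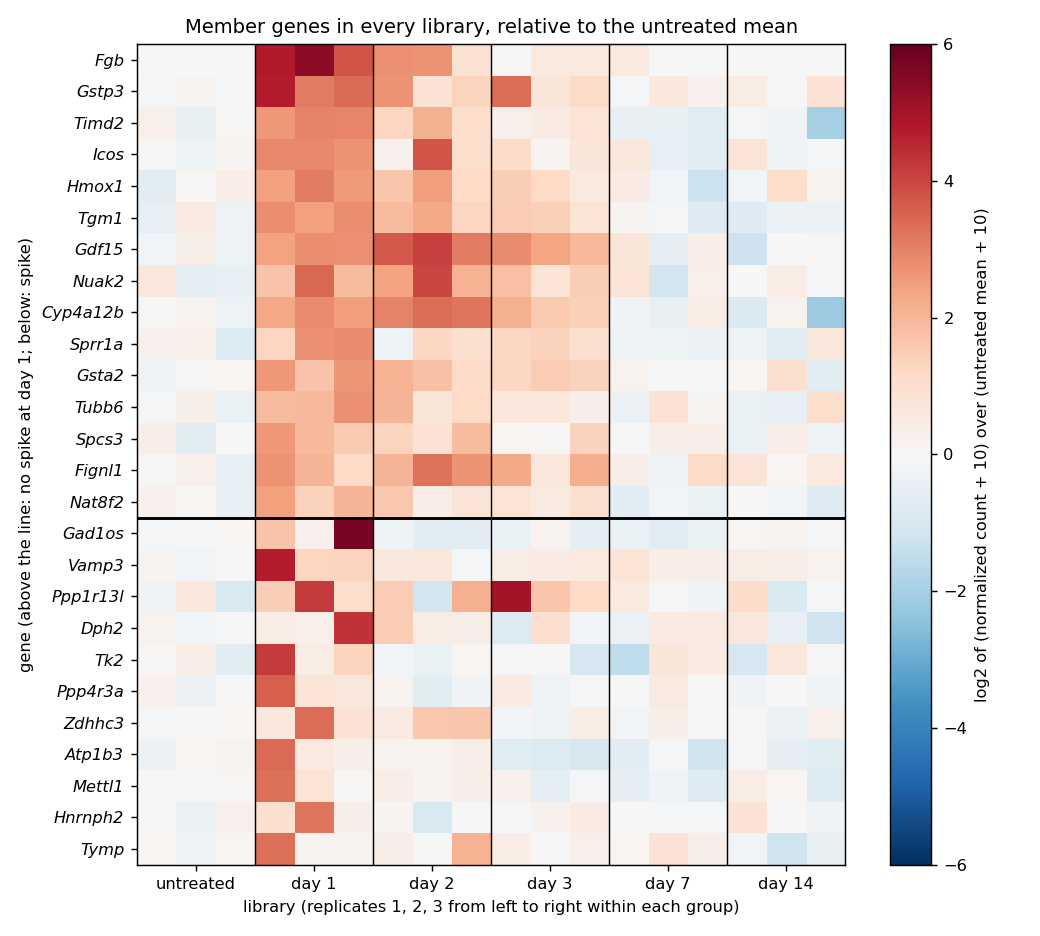
Colour shows log2 of normalized count plus 10 over the untreated mean plus 10 for each member (rows) and library (columns, replicates 1 to 3 from left to right within each group). Above the black line all 3 day 1 columns are red for each of the 15 genes, and below it each of the 11 genes has 1 dark day 1 cell, with a second dark cell for Ppp1r13l at day 3.

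The split into 15 and 11 was made on day 1 values, and without their high library the 11 already stood lower at day 1, so the values of both kinds at later days are given side by side without a test. The median level at day 2 was 2.61 times the untreated level over all 26 members, 3.66 times for the 15 and 1.25 times for the 11. At day 3 it was 1.52, 2.32 and 1.05 times, and 1.6 over all 26 with Fgb at its lower bound. Every day 2 library lay above every untreated library for 18 of 26 members, 14 of the 15 and 4 of the 11, beside 15.9% of the 10773 genes. At day 3 this held for 13 members, 11 and 2, beside 15.7%, at day 7 for 2 (Vamp3, Tymp) beside 15.4%, and at day 14 for 1 (Vamp3) beside 10.8%. Untreated libraries helped choose the members, and every comparison with untreated kidney shares them, so these counts and the edgeR calls against untreated kidney in the next 2 paragraphs are a description. Without Fignl1 the counts were 17 of 25 at day 2 and 12 at day 3.

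In the edgeR quasi-likelihood test (Benjamini-Hochberg adjusted p under 0.05), 25 members could be tested and Gad1os was too low. At day 2, 12 were called higher than untreated and 0 lower (0 lower also at an unadjusted p under 0.05, in DESeq2 and in limma-voom), beside 7.19 and 5.98% of all genes. The 12 were Fgb, Gstp3, Timd2, Icos, Hmox1, Tgm1, Gdf15, Nuak2, Cyp4a12b, Gsta2, Spcs3 and Fignl1. The log2 change was 4.29 for Gdf15 (SE 0.68), 3.25 for Cyp4a12b (SE 0.48), 1.95 for Hmox1 (SE 0.48) and 1.92 for Tgm1 (SE 0.37). Without Fignl1, which its day 2 mean admitted, 11 of 24 were called. None of the 12 was among the genes with a single high library. All comparisons of a gene share 1 estimate of its spread, which a single high day 1 library widens, so nothing is read from this. The call for Icos was lost without day 2 replicate 2 (log2 1.31, edgeR adjusted p = 0.425).

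At day 3, 7 members were called higher than untreated and 0 lower (0 also at an unadjusted p under 0.05, in DESeq2 and in limma-voom), beside 4.18 and 3.43% of all genes. They were Gstp3, Ppp1r13l, Tgm1, Gdf15, Cyp4a12b, Gsta2 and Fignl1. Gdf15 had a log2 change of 2.98 (SE 0.65) and Cyp4a12b of 1.82 (SE 0.45), and without Fignl1 6 were called. Leaving out untreated replicate 1, untreated replicate 3 or day 3 replicate 1 gave 1 call, and leaving out untreated replicate 2 gave 2. There were 13 calls with library totals as the scaling, which moved the median log2 change of all genes by 0.577. Only Gdf15 was called whichever library was left out. Without day 3 replicate 1, Ppp1r13l had a log2 change of 1.80 (edgeR adjusted p = 0.38).

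The step from day 2 to day 3 was tested on libraries that the rule used only in the level minimum, and for every member but Fignl1 another group met that minimum. The members were lower at day 3 for 19 of 25 tested and higher for 6. Their median log2 change was -0.77, beside 0.02 over all genes. The rule makes members high at day 1 and near untreated at day 7, so a fall at some step between is built in. The medians and counts here, and the non-overlap count in the next paragraph, are therefore a description. No member passed in edgeR, beside 0.0297% of all genes called lower and 0.22% called higher, and at an unadjusted p under 0.05 there were 7 lower and 1 higher. Without Fignl1, 18 of 24 were lower, with a median of -0.75, and again 0 passed, with 7 lower and 1 higher at an unadjusted p under 0.05. DESeq2 called 1 member lower, Cyp4a12b (log2 -1.45, SE 0.46, adjusted p = 0.0416), and limma-voom called 0. In edgeR Cyp4a12b had a log2 change of -1.43 (SE 0.44, adjusted p = 0.128), Fgb of -3.53 (SE 1.10, adjusted p = 0.14) and Nuak2 of -1.64 (SE 0.58, adjusted p = 0.172).

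All 3 day 3 libraries lay below all 3 day 2 libraries for 8 of 26 members, beside 8.76% of the 10773 genes: Fgb, Timd2, Gdf15, Nuak2, Cyp4a12b, Tubb6, Zdhhc3 and Atp1b3. In simulated counts of this comparison edgeR recovered 50% of genes changed 4-fold and 2% of those changed 2-fold, so changes of the size of the members' median were rarely recovered at this depth and number of libraries.

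Few members belong to the pathway lists that were used to sort them. Of the list of 38 NRF2 targets, 3 met the day 1 criteria and 2 of these, Hmox1 and Gsta2, were members. The other, Akr1b8, was still 5.52 higher on the log2 scale at day 7 (edgeR adjusted p = 1.44e-05). In the whole NRF2 list edgeR called 11 of 35 genes tested higher and 1 lower at day 1 (median log2 change 0.80, beside 0.05 over all genes), 9 higher and 2 lower at day 2, 3 and 1 at day 3, and 1 higher and 7 lower at day 7. Over all genes edgeR called 5.09% higher and 5.56% lower at day 1, and 7.19 and 5.98% at day 2. At day 3 it called 4.18% higher and 3.43% lower, and at day 7 3.87 and 3.85%. The pentose phosphate enzyme Pgd (log2 1.84 at day 1, adjusted p = 0.000134, edgeR) and the glutathione synthesis enzyme Gclc (log2 1.40, adjusted p = 0.00168) were among those higher at day 1, and neither passed at day 7 (log2 0.12 and -0.70). The ferritin chains Ftl1 and Fth1 rose at day 1 (log2 1.22 and 1.27) and fell by 0.91 and 1.54 at day 7 (edgeR adjusted p = 0.0194 and 0.00238).

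The list of keratins, cytoskeleton and adhesion genes had 17 genes that met the day 1 criteria. Of these 2, Tubb6 and Sprr1a, were members and 15 were at or above the late limit at day 7. Most genes that met the day 1 criteria did so: of all 260, 182 were above it at both late times and 47 at day 7 only. Of its 43 genes tested, edgeR called 24 higher at day 1 and 18 at day 7 (5.09 and 3.87% of all genes), and Cd44, a hyaluronan receptor, was at log2 5.12 at day 1 and 6.23 at day 7. The acute phase list gave 9 such genes with Fgb the only member, and 13 of its 20 tested genes were called higher at day 1 and 6 at day 7, beside the same shares of all genes. Gdf15 was the member among 4 such genes of the ATF4 list and among 2 of the p53 target list.

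Immediate early genes (7 met the day 1 criteria), cytokines and chemokines (8), and cytokine receptors with STAT3 and NF-kB feedback genes (9) contributed 0 members. All of these were at or above the late limit at day 7. So were most of the 260 genes that met the day 1 criteria (182 at both late times, 47 at day 7 only). The counts therefore do not set these lists apart. Socs3, a feedback inhibitor of cytokine signalling, was 16.3 times the untreated level at day 1 and 7.80 times at day 7. These ratios have 10 added to each mean, and the untreated mean was 2.50. In the immediate early list edgeR called 12 of 38 genes higher at day 1 and again 12 at day 7, beside 5.09 and 3.87% of all genes. No member is in any of the 18 cell type marker lists.

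At the edges of the rule, Hnrnph2 (4.11), Nat8f2 (4.09) and Tymp (4.01) were just inside the day 1 limit of 4 times untreated, and Pole (3.98), Cd2ap (3.94) and Cryab (3.94) just outside. Vamp3 (1.47), Fignl1 (1.46) and Gstp3 (1.42) were just inside the late limit of 1.5 times, and Nrg1 (1.501), Tnfrsf12a (1.55) and Cfap69 (1.55) just outside.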

How the data were processed

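Total RNA from frozen kidney was extracted with TRIzol, and 10 ng per sample was amplified with NuGEN SPIA reagents, per the labels' protocols. The submitters' processing notes name cutadapt, TopHat2 2.07, HTSeq, DESeq and the build NCBIM37, and use of strand is not given in the sources used here. The deposited raw files hold read counts for 37991 gene identifiers and 5 tallies, which took 34.5 to 51.3% of reads and were left out. The deposited normalized files hold, as signal, the counts divided by 1 size factor per library (0.218 to 1.97). Groups, 3 libraries each, follow the sample titles.

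Members were found from the normalized values, and every test used the raw counts in edgeR 4.0.16 (quasi-likelihood, TMM, filterByExpr, 1 fit over 18 libraries with group as the only term, 16824 genes, Benjamini-Hochberg over all of them). DESeq2 1.42.0, limma 3.58.1 (voom), a replicate block, other scalings and filters, other rule limits and leaving out each library were alternatives. The edgeR fit was tested on simulated data. All members are named. The members, the 22 pathway and 18 marker lists and the alternatives were chosen with earlier results of these data known, and the 4 relatives followed through the alternatives (Fga, Fgg, Nat8f1, Cyp4a12a) after the members were known, as was the alternative without Fignl1, added after seeing the data. Symbols came from GENCODE M21, and gene coordinates are not given because its build differs from the files' build. R 4.3.3, Python 3.11.15, pandas 2.3.3 and matplotlib 3.10.9 were used.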

Additional observations from a re-analysis of the deposited data

How the results depend on the processing

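The number of genes that met the rule, 26, was 66 with the late limit at 2 times untreated, 62 with the day 1 limit at 3 times and 46 with overlap of day 1 and untreated libraries allowed, and 25 to 52 when 1 library was left out (45 without day 1 replicate 2, 52 without day 1 replicate 3). The other 5 changes of the rule gave 18 to 32. The genes changed too: an offset of 50 kept 14 of the 26, an offset of 1 kept 22 and lost Fgb, Fignl1, Gstp3 and Tymp, and leaving out day 1 replicate 1 kept 16 (33 genes met the rule). Members higher at day 3 than untreated, 7, numbered 13 with library totals, 3 with limma-voom, 3 with only the compared groups fitted, 4 with the replicate block and 1 to 5 when 1 library was left out. Members higher at day 2, 12, numbered 8 to 11 when 1 library was left out, 8 with only the compared groups fitted, where Fgb and Gstp3 gave no value, and 11 with the replicate block. Of these 12, 8 kept their call in every other setting, and 6 did so when any library was left out. The median change from day 2 to day 3, -0.77, was -0.51 with library totals and -0.79 to -0.48 when 1 library was left out (-0.48 without day 2 replicate 1), and DESeq2 called 1 member lower, against 0. No followed value changed direction. Library totals moved the median of all genes by 0.143, 0.254 and 0.577 at days 1, 2 and 3 against untreated and by 0.32 from day 2 to day 3. All 36 alternatives for the 4 relatives kept their call, at day 1 for Fga, Fgg and Nat8f1 and at day 3 for Cyp4a12a. The fall of Cyp4a12a at day 2 (edgeR adjusted p = 0.0486) was not followed through the alternatives. Libraries with the same replicate number had correlations of -0.0543 to 0.0416 after group means were removed. Those with other numbers had -0.0559 to 0.0501. No link by replicate number was seen, which does not settle what the numbers stand for. With 3 libraries a group, 1 library decides the day 1 value of 11 members. Over all 26 members, only 10 stayed at 4 times untreated or more without their highest day 1 library. Intervals cover counting error only. No library was a copy of another in its group.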
